A study of Mus musculus with 5 samples.

Results

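The genes of the G1 control point that act on the retinoblastoma pathway were read across 5 RNA-seq libraries of B16F10, a mouse melanoma line that grows as pigmented tumours in C57BL/6 mice. They are 10 of the 54100 genes in the count table, chosen by function: the D cyclins Ccnd1, Ccnd2 and Ccnd3, their kinases Cdk4 and Cdk6, the inhibitors Cdkn1b, Cdkn1c and Cdkn2b, and the pocket proteins Rb1 and Rbl2. The 5 libraries were wild-type cells in dynamic suspension culture, wild-type cells in conventional 3D culture, cells labelled as overexpressing HIF1α, cells labelled as HIF1α knockdown, and wild-type cells labelled shControl. One growth protocol was given for all 5, in which cells were shaken at 60 to 80 rpm without serum over 7 to 10 days. How the conventional 3D culture differed from it was not stated, nor was the construct behind the knockdown or the overexpression. Each library pooled 3 repeats, so there was 1 library a group, no measure of the spread between repeats and no test of any difference. Intervals below are 95% counting intervals and cover counting error only.

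Cells in G1 make D cyclins when growth signals are present, and the D cyclins bind and activate CDK4 or CDK6. These kinases phosphorylate the pocket proteins RB1 (pRB), RBL1 (p107) and RBL2 (p130), which otherwise hold E2F transcription factors in check, so that genes of S phase become active. INK4 proteins such as p15, made from Cdkn2b, block CDK4 and CDK6 alone, whereas the CIP/KIP proteins p27, from Cdkn1b, and p57, from Cdkn1c, act mainly on complexes with CDK2 and are also bound by cyclin D complexes. Quiescent cells typically hold much p130 and p27. The transcript levels given here do not report phosphorylation or protein amounts, which govern much of this pathway.

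Levels are scaled counts (CPM, relative to the library total) after TMM scaling, which corrects those totals for differences in composition, and levels of different genes are set side by side only as CPM per kilobase of exon. A difference between 2 libraries was called where the gene averaged at least 1 CPM over them, the log2 ratio was at least 1 in size and its counting interval excluded a ratio of 1. The library totals were 61014260, 61267892, 15393189, 14803426 and 59493240, in the order in which the libraries are listed above. Hif1a stood at 390.5, 542 and 384 CPM in dynamic suspension, conventional 3D and the library labelled overexpression, at 95.1 CPM in the library labelled knockdown, and at 61.3 CPM in shControl. The knockdown library thus went against its label relative to shControl, so it is named here by its label only. The library labelled overexpression was above shControl but not above dynamic suspension or conventional 3D. The lowest level of all was in shControl, far below the other wild-type libraries. The deposited column of the library labelled knockdown is headed with the bare name of the line, B16F10. The columns of dynamic suspension, conventional 3D and shControl were taken as estimated counts, since 26.8% to 29.2% of the values from 1 to 40 were multiples of 4. The columns of the libraries labelled overexpression and knockdown were taken as plain counts, with 17.3% and 16.1%. Where either of these 2 libraries is set against shControl, group and kind of column differ together and cannot be told apart. Of 8 melanocyte lineage markers, 7 reached 1 CPM in every library, and their summed level was between 14699 and 30823 CPM. Fibroblast markers summed to 37.6, 129, 15.8, 35.6 and 38.4 CPM in dynamic suspension, conventional 3D, the library labelled overexpression, that labelled knockdown and shControl, with 6, 8, 3, 4 and 6 of 8 at 1 CPM or above. Immune markers summed to 14.0, 15.4, 8.45, 0.788 and 4.42 CPM in the same order, with 1, 2, 1, 0 and 1 of 8 at 1 CPM or above. Few immune markers passed the filter, and each one tested against shControl was called. Called higher were 1 of 1 in dynamic suspension, 2 of 2 in conventional 3D and 1 of 1 in the library labelled overexpression. Of all genes tested, 13.8%, 14.0% and 16.1% were called higher there. In the library labelled knockdown, 1 of 1 was called lower, where 15.7% of all genes were. Ptprc, which marks leukocytes, was at 0 in 4 of the libraries. Of 8 fibroblast markers tested, 6 were called higher in conventional 3D than in shControl, where 14.0% of all genes were. In dynamic suspension against conventional 3D, 6 of 8 were called lower, where 7.64% of all genes were. In dynamic suspension against shControl, 0 of 6 were called. Against shControl, 4 of 6 were lower and 1 higher in the library labelled overexpression, and 3 lower and 2 higher in that labelled knockdown. The part of other cell types in the results was not tested, and in bulk RNA fewer cells of a type and less RNA per cell cannot be told apart.

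Ccnd1, Cdk4 and Cdk6 were lowest in dynamic suspension and highest in the library labelled knockdown or in shControl, whereas Cdkn1b and Rbl2 were highest in dynamic suspension. From its lowest to its highest library, Cdk6 spanned 4.80-fold, Ccnd1 4.30-fold, Cdk4 3.29-fold, Cdkn1b 2.88-fold, Rb1 2.78-fold, Ccnd2 2.32-fold, Rbl2 2.10-fold and Ccnd3 1.45-fold. Cdkn1c and Cdkn2b stayed at or under 1.20 CPM.

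**Figure D1:**
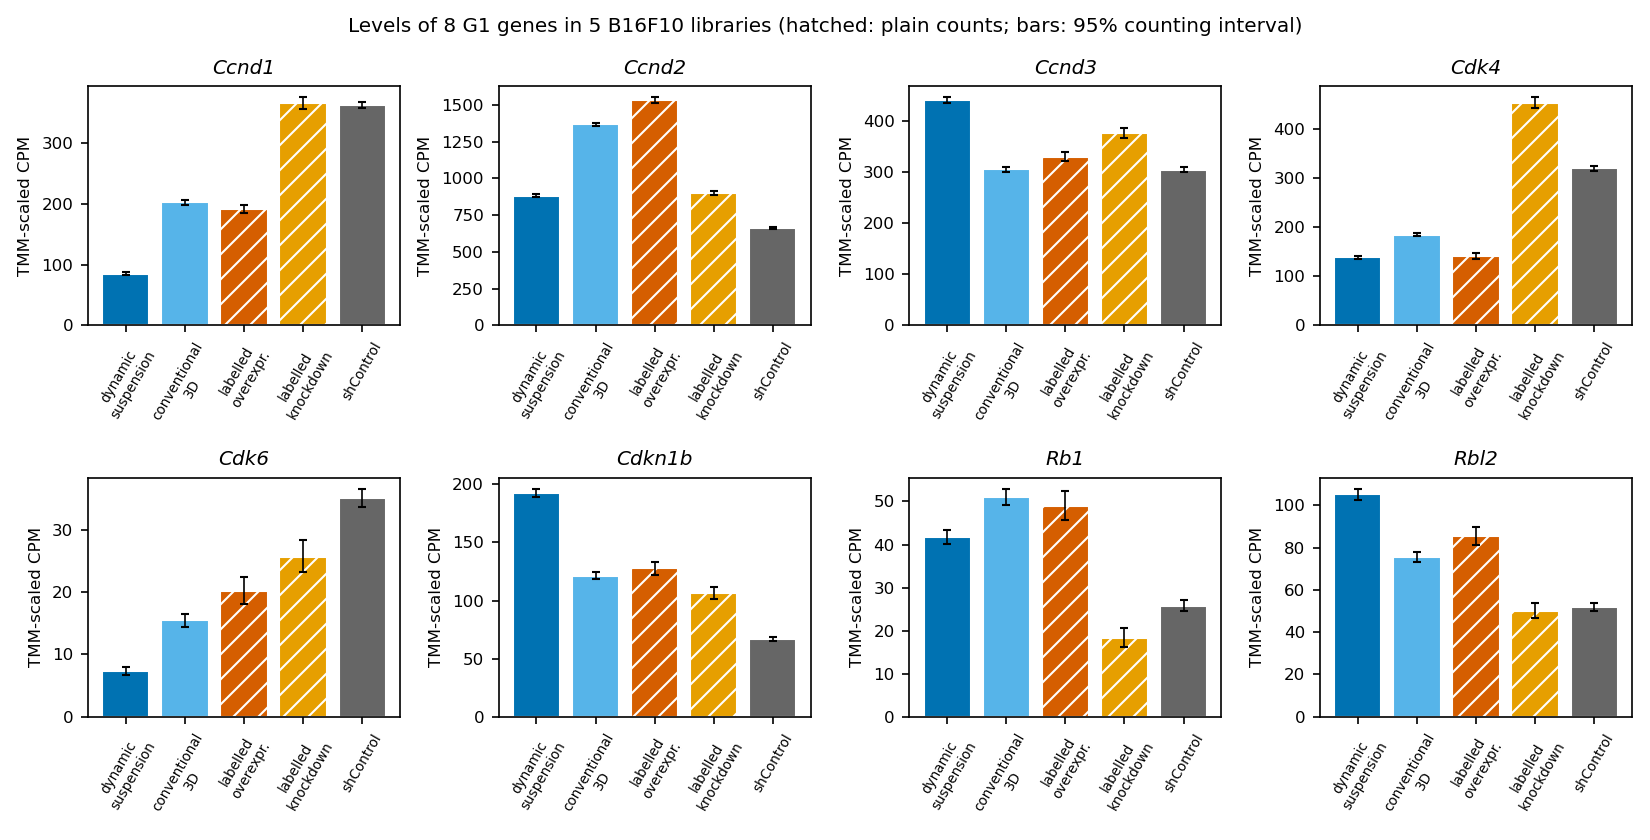
Level of 8 of the 10 genes in the 5 libraries, in TMM-scaled CPM on axes that start at 0; each bar is 1 library, hatching marks plain counts and error bars are 95% counting intervals (Cdkn1c and Cdkn2b, near 0, are not drawn). Ccnd1 stood at 85.2 CPM in dynamic suspension and 362 CPM in shControl, while Cdkn1b stood at 193 and 66.8 CPM in the same libraries.

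The D cyclins share a role but moved separately. Ccnd1 (ENSMUSG00000070348, chromosome 7, 144929931 to 144939925, minus strand, GRCm38) encodes cyclin D1, the D cyclin most closely tied to mitogen signalling through the MAP kinase pathway. Its level was 85.2 CPM in dynamic suspension, 203 CPM in conventional 3D, 191 CPM in the library labelled overexpression, 366 CPM in that labelled knockdown and 362 CPM in shControl. The last 2 had overlapping counting intervals, 356 to 376 and 358 to 367 CPM, while dynamic suspension lay far below all others. The log2 ratio of dynamic suspension to conventional 3D was -1.25 (interval -1.30 to -1.20), and to shControl it was -2.09 (-2.13 to -2.05); both were called lower. Conventional 3D against shControl gave -0.84, and the library labelled overexpression gave -0.94 against that labelled knockdown and -0.93 against shControl, all short of the 2-fold threshold. The first and the last of these passed it with another scaling, at -1.09 with total counts only and at -1.01 with TMM factors taken from protein-coding genes without overlap. Ccnd1 overlaps the opposite-strand gene LTO1 over 23.4% of its exon length, and it was not stated whether counting used the strand; LTO1 itself held between 8.91 and 18.2 CPM.

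Ccnd2 (ENSMUSG00000000184, chromosome 6, 127125162 to 127152193, minus strand) encodes cyclin D2, which in many cell types is a target of MYC and is repressed by FOXO factors. It stood at 884 CPM in dynamic suspension, 1371 CPM in conventional 3D, 1534 CPM in the library labelled overexpression, 902 CPM in that labelled knockdown and 662 CPM in shControl. The order thus differed from that of Ccnd1, with shControl lowest. The log2 ratio to shControl was 1.05 in conventional 3D (interval 1.03 to 1.07) and 1.21 in the library labelled overexpression (1.19 to 1.23), both called higher. The first fell to 0.80 with total counts only and was then not called. Against the library labelled knockdown, that labelled overexpression was 0.77 higher on the log2 scale, and dynamic suspension against conventional 3D gave -0.63.

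Ccnd3 (ENSMUSG00000034165, chromosome 17, 47505051 to 47599691, plus strand) encodes cyclin D3, the D cyclin known for its use in lymphocytes and in differentiating muscle. It varied least of the 8 members tested in all 6 comparisons. Its level was 440.4 CPM in dynamic suspension, 305 CPM in conventional 3D, 329 CPM in the library labelled overexpression, 376 CPM in that labelled knockdown and 304 CPM in shControl. Dynamic suspension was the highest library, by 0.53 on the log2 scale over both conventional 3D and shControl. Conventional 3D against shControl was at 0.00 and took either sign under other scalings, between -0.25 and 0.02.

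Because the 3 genes moved differently, the make-up of the D cyclin transcripts changed more than their sum. Summed per kilobase, the D cyclins held 162, 223.5, 241, 216 and 182 CPM per kilobase in dynamic suspension, conventional 3D, the library labelled overexpression, that labelled knockdown and shControl. Ccnd1 made up 11.1% of that sum in dynamic suspension, 19.2% in conventional 3D, 16.8% in the library labelled overexpression, 35.9% in that labelled knockdown and 42.3% in shControl. The share was thus lowest in dynamic suspension and at its highest in shControl, the only library in which Ccnd1 exceeded Ccnd2 per kilobase. Ccnd2 made up 57.9%, 65.2% and 67.6% in the first 3 libraries, against 44.3% in that labelled knockdown and 38.7% in shControl. Ccnd3 held 30.9% in dynamic suspension and 15.6% to 19.8% elsewhere.

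**Figure D2:**
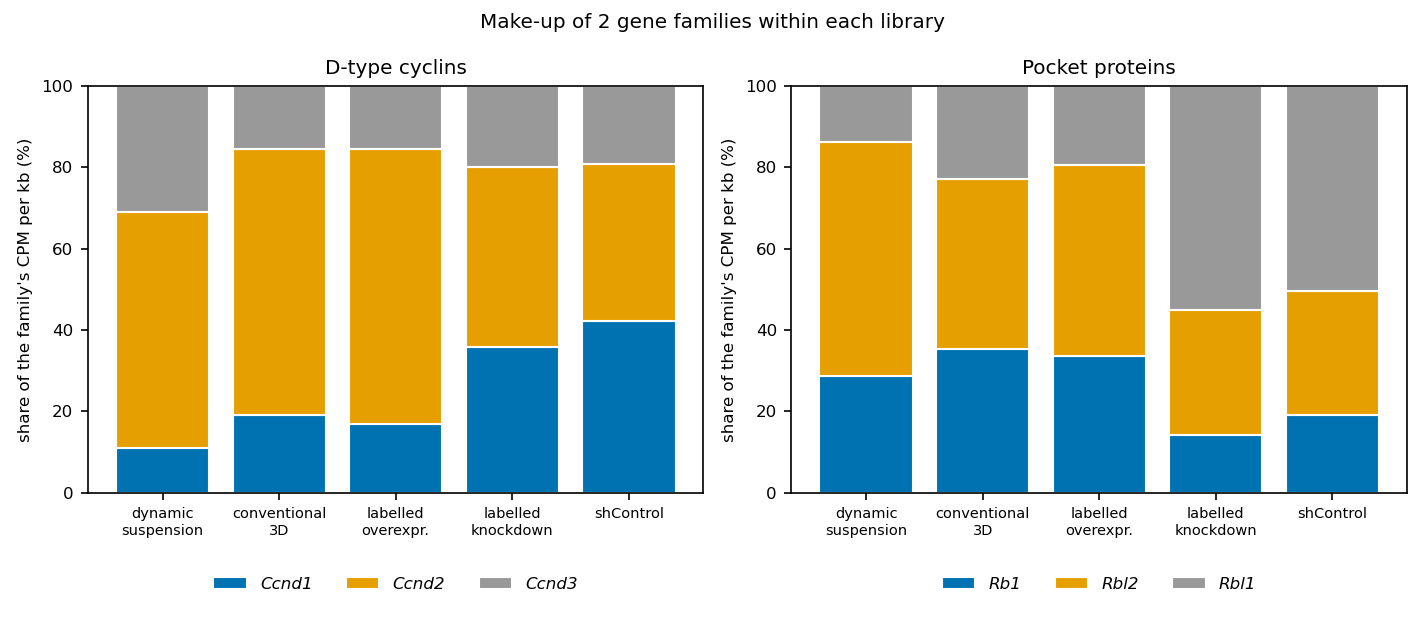
Share of each gene in the summed CPM per kilobase of its family, in percent, for the D cyclins and the pocket proteins in the 5 libraries; each bar adds to the whole of the family. Ccnd1 made up 11.1% of the D cyclins in dynamic suspension and 42.3% in shControl, and Rbl1 made up 13.7% and 50.5% of the pocket proteins in the same libraries.

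Both kinase genes, like Ccnd1, were lowest in dynamic suspension. Cdk4 (ENSMUSG00000006728, chromosome 10, 127063534 to 127067920, plus strand) encodes the main catalytic partner of the D cyclins in most tissues and is altered in some familial melanomas. It stood at 138 CPM in dynamic suspension, 185 CPM in conventional 3D, 141 CPM in the library labelled overexpression, 453 CPM in that labelled knockdown and 319 CPM in shControl. The library labelled knockdown and shControl were the highest, and the other 3 lay within 138 to 185 CPM, with overlapping counting intervals in dynamic suspension (135 to 141 CPM) and the library labelled overexpression (135 to 147 CPM). Cdk4 was called lower in dynamic suspension than in shControl, with a log2 ratio of -1.21. The library labelled overexpression was called lower than that labelled knockdown, at -1.69 (interval -1.75 to -1.62), and lower than shControl, at -1.18. Conventional 3D against shControl gave -0.79, which became -1.04 with total counts only. Cdk4 overlaps the opposite-strand gene Tspan31 over 19.7% of its exon length; Tspan31 held 122, 127, 85.9, 97.7 and 84.9 CPM in the 5 libraries as listed, an order unlike that of Cdk4.

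Cdk6 (ENSMUSG00000040274, chromosome 5, 3341485 to 3531008, plus strand) encodes the second D cyclin kinase, best known from blood cells. Its level was 7.32 CPM in dynamic suspension, 15.5 CPM in conventional 3D, 20.2 CPM in the library labelled overexpression, 25.7 CPM in that labelled knockdown and 35.1 CPM in shControl. No neighbours in this order had overlapping counting intervals; the 2 nearest were 18.1 to 22.5 and 23.2 to 28.4 CPM. The log2 ratio of dynamic suspension was -1.07 to conventional 3D (interval -1.25 to -0.91) and -2.25 to shControl (-2.41 to -2.11), and that of conventional 3D to shControl was -1.18; all 3 were called lower. With total counts only, the first became -0.89 and was not called. Per kilobase, the ratio of Cdk6 to Cdk4 was 0.0123 to 0.0334 in the 5 libraries, so Cdk4 was the more abundant kinase transcript in each.

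Of the 10 genes, 6 have a promoter window in RefSeq, and 8 sequence motifs were searched on both strands in the 250 bases before the start of each. The windows of Cdk4, Cdk6, Cdkn1b and Rbl2 are shown because they belong to 2 members that were lowest and 2 that were highest in dynamic suspension, and differ in the palindromic E-box CACGTG, a motif bound by MYC, MITF and related factors; they were chosen after the values were seen. Each is 5′ to 3′ along the gene's strand on GRCm38.p6, with the E-boxes in capitals: chr10:127063285-127063534 for Cdk4, chr5:3343643-3343892 for Cdk6, chr6:134920151-134920400 for Cdkn1b and chr8:91069807-91070056 for Rbl2, all on the plus strand.
Cdk4: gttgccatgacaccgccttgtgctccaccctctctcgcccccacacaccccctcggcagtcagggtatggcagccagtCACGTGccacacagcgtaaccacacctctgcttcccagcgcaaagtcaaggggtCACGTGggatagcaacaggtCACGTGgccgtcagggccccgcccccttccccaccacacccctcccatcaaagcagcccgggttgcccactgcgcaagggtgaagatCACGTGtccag
Cdk6: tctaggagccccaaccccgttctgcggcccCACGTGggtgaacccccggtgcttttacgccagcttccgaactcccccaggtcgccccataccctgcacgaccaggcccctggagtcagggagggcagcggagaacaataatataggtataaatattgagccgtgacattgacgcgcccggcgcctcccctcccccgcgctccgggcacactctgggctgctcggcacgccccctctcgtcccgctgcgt
Cdkn1b: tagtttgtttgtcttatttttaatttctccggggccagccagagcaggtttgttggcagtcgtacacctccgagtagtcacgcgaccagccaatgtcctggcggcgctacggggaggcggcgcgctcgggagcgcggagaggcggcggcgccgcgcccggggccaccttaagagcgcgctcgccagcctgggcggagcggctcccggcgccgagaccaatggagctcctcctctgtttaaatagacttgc
Rbl2: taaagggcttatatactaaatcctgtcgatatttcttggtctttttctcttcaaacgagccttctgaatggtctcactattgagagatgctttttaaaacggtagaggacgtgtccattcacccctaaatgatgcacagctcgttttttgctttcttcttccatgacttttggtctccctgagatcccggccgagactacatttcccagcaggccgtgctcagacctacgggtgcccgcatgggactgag
The Cdk4 window holds 4 E-boxes, which begin at -172, -118, -98 and -11 relative to the start, and the Cdk6 window holds 1, which begins at -220. The windows of Cdkn1b, Rbl2, Ccnd3 and Cdkn2b hold none. Among 32851 RefSeq windows of the same length, 6.02% hold at least 1 E-box and 7 windows, or 0.0213%, hold 4 or more. The core of the hypoxia response element, ACGTG or GCGTG, is in 38.6% of windows and in a window of each of the 6 genes. Every CACGTG contains ACGTG on both strands, and all core matches of Cdk4 lie within its E-boxes. Cdk6 has core matches within its E-box and a further core outside it, at -25. Where there is no E-box, the core begins at -172 in Cdkn1b, -142 in Rbl2, -9 in Cdkn2b and -132 in a window of Ccnd3. The cyclic AMP response element TGACGTCA, found in 1.55% of windows, is in that of Cdkn2b. The FOXO word TGTTTAC, found in 3.17% of windows, is in a window of Ccnd3 and not in those of Cdkn1b, Rbl2, Cdk4, Cdk6 or Cdkn2b. The E2F words TTTCCCGC, TTTGGCGC, TTTGCCGC and TTTCGCGC, found together in 1.86% of windows, are in none of the 6. These matches are descriptions of letters and not of binding.

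The most abundant of the 3 inhibitors among the members was Cdkn1b (ENSMUSG00000003031, chromosome 6, 134920401 to 134925513, plus strand), which encodes p27, an inhibitor of cyclin E-CDK2 that accumulates in quiescent cells. It stood at 193 CPM in dynamic suspension, 121.5 CPM in conventional 3D, 128 CPM in the library labelled overexpression, 106 CPM in that labelled knockdown and 66.8 CPM in shControl. Dynamic suspension was the highest and shControl the lowest, and the counting intervals of conventional 3D, 119 to 125 CPM, and the library labelled overexpression, 122 to 133 CPM, overlapped. The log2 ratio of dynamic suspension to shControl was 1.53 (interval 1.48 to 1.58) and was called higher. Conventional 3D, the library labelled knockdown and that labelled overexpression were 0.86, 0.67 and 0.93 above shControl on the log2 scale, none of them called; the last reached 1.01 and was called with another scaling. No exon of Cdkn1b overlaps another gene.

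The other inhibitors were at low levels, at or under 1.20 CPM. Cdkn1c (ENSMUSG00000037664, chromosome 7, 143458339 to 143461050, minus strand) encodes p57, the product of an imprinted gene. It had values of 42, 46, 7, 1 and 74 in dynamic suspension, conventional 3D, the library labelled overexpression, that labelled knockdown and shControl, which come to 0.695, 0.864, 0.417, 0.0656 and 1.20 CPM. It entered the test in 1 comparison only, conventional 3D against shControl, with a log2 ratio of -0.45 whose interval, -1.04 to 0.08, included no difference. The ratio of the library labelled knockdown to shControl was 0.0546, with a counting interval of 0.00136 to 0.314, and rests on 1 count. Cdkn1c overlaps an opposite-strand gene over 30.7% of its exons, which was at 0 in all 5 libraries. Cdkn2b (ENSMUSG00000073802, chromosome 4, 89306299 to 89311039, minus strand) had values of 4, 10, 0, 0 and 10 in the same libraries and was tested in none of the comparisons. Where it was at 0, the limit taken for a count of 0, 3 counts, comes to 0.179 CPM in the library labelled overexpression and 0.197 CPM in that labelled knockdown. This takes in the level of 0.162 CPM in shControl, so no difference was detectable at this depth.

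Of the inhibitors outside the 10 genes, Cdkn1a exceeded Cdkn1b per kilobase in every library. Cdkn1a, which encodes p21, held 434 CPM in dynamic suspension, 341 CPM in conventional 3D, 586 CPM in the library labelled overexpression, 489 CPM in that labelled knockdown and 424 CPM in shControl, with no difference called. Per kilobase it exceeded Cdkn1b by 2.89-fold in dynamic suspension, 3.60-fold in conventional 3D, 5.88-fold and 5.89-fold in the libraries labelled overexpression and knockdown, and 8.12-fold in shControl. Cdkn2a, the neighbour of Cdkn2b that encodes p16 and p19ARF and whose loss has been described in B16 melanoma, was at 0 in all 5 libraries. Cdkn2c, which encodes the INK4 protein p18, stood at 34.4, 168, 87.5, 88.2 and 57.2 CPM and was the one INK4 gene with a call. It was lower in dynamic suspension than in conventional 3D, with a log2 ratio of -2.28, and higher in conventional 3D than in shControl, with 1.55.

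Both pocket protein genes among the members were lowest in the library labelled knockdown. Rb1 (ENSMUSG00000022105, chromosome 14, 73183673 to 73325822, minus strand) encodes pRB, the founding tumour suppressor of the pathway. Its level was 41.8 CPM in dynamic suspension, 51.0 CPM in conventional 3D, 49.0 CPM in the library labelled overexpression, 18.3 CPM in that labelled knockdown and 25.7 CPM in shControl. Conventional 3D and the library labelled overexpression had overlapping counting intervals, 49.1 to 52.9 and 45.7 to 52.5 CPM, and the library labelled knockdown and shControl lay below the other 3. The library labelled overexpression was called higher than that labelled knockdown, with a log2 ratio of 1.42 (interval 1.22 to 1.62). Conventional 3D against shControl gave 0.99 and the library labelled overexpression against shControl gave 0.93, just short of a call. Each reached 1.01 and was called with another scaling.

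Rbl2 (ENSMUSG00000031666, chromosome 8, 91070057 to 91123844, plus strand) encodes p130, the pocket protein that binds E2F4 in quiescent cells as part of the DREAM complex. It stood at 105 CPM in dynamic suspension, 75.7 CPM in conventional 3D, 85.4 CPM in the library labelled overexpression, 50.1 CPM in that labelled knockdown and 51.8 CPM in shControl. The last 2 had overlapping intervals, 46.6 to 53.8 and 50.1 to 53.7 CPM. Dynamic suspension was called higher than shControl with a log2 ratio of 1.02 (interval 0.96 to 1.08), which stood at 0.96 and was not called with total counts only. Opposite-strand genes overlap Rb1 over 14.9% of its exon length and Rbl2 over 1585 of its 7558 exonic bases. Rcbtb2 and Lpar6, on the other strand of Rb1, were not called in the comparison in which Rb1 was, and Aktip, on the other strand of Rbl2, was not called in that in which Rbl2 was. Gm45464, the other gene on that strand of Rbl2, was below the filter, with 25 counts in dynamic suspension and 3 in shControl.

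Rbl1, the pocket protein gene that is itself driven by E2F and peaks around S phase, went the other way. It was called lower in dynamic suspension than in shControl, with a log2 ratio of -1.77, in conventional 3D than in shControl, with -1.06, and in the library labelled overexpression than in that labelled knockdown, with -1.34, and than in shControl, with -1.27. The sum of Rb1, Rbl1 and Rbl2 per kilobase stayed within 21.5 to 24.2 CPM per kilobase in all 5 libraries. Within it, Rbl2 held 57.5% in dynamic suspension, 41.9% in conventional 3D, 46.8% in the library labelled overexpression, 30.8% in that labelled knockdown and 30.5% in shControl. Rbl1 held 13.7%, 22.7% and 19.4% in the first 3, against 55.1% in the library labelled knockdown and 50.5% in shControl.

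Ratios taken within a library need no scaling between libraries. Per kilobase, Rbl2 exceeded Rbl1 by 4.19-fold in dynamic suspension, 1.84-fold in conventional 3D and 2.41-fold in the library labelled overexpression, whereas the ratio was 0.559 in the library labelled knockdown and 0.605 in shControl. Ccnd1 stood at 0.193 of Ccnd2 in dynamic suspension, 0.295 in conventional 3D, 0.249 in the library labelled overexpression, 0.811 in that labelled knockdown and 1.09 in shControl. Cdkn1b was about level with Cdk4 in dynamic suspension, at a ratio of 0.997, and stood at 0.470, 0.647, 0.168 and 0.149 of it in conventional 3D, the library labelled overexpression, that labelled knockdown and shControl. In these ratios the library labelled knockdown and shControl lay on one side of the other 3. Of 11 such ratios computed, 7 had this order by value. The other 4 did not: Ccnd3 over Ccnd2, Cdk6 over Cdk4, Cdkn2c over Cdkn1b and Rbl2 over Rb1. Among the 7, Cdkn1a over Cdkn1b was a near tie between the libraries labelled overexpression and knockdown. Its counting intervals there overlapped, at 5.61 to 6.17 and 5.58 to 6.21, so it does not separate these libraries. Several of the 11 share a gene, so they are not independent, and they were not set against other pairs of genes.

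**Figure D3:**
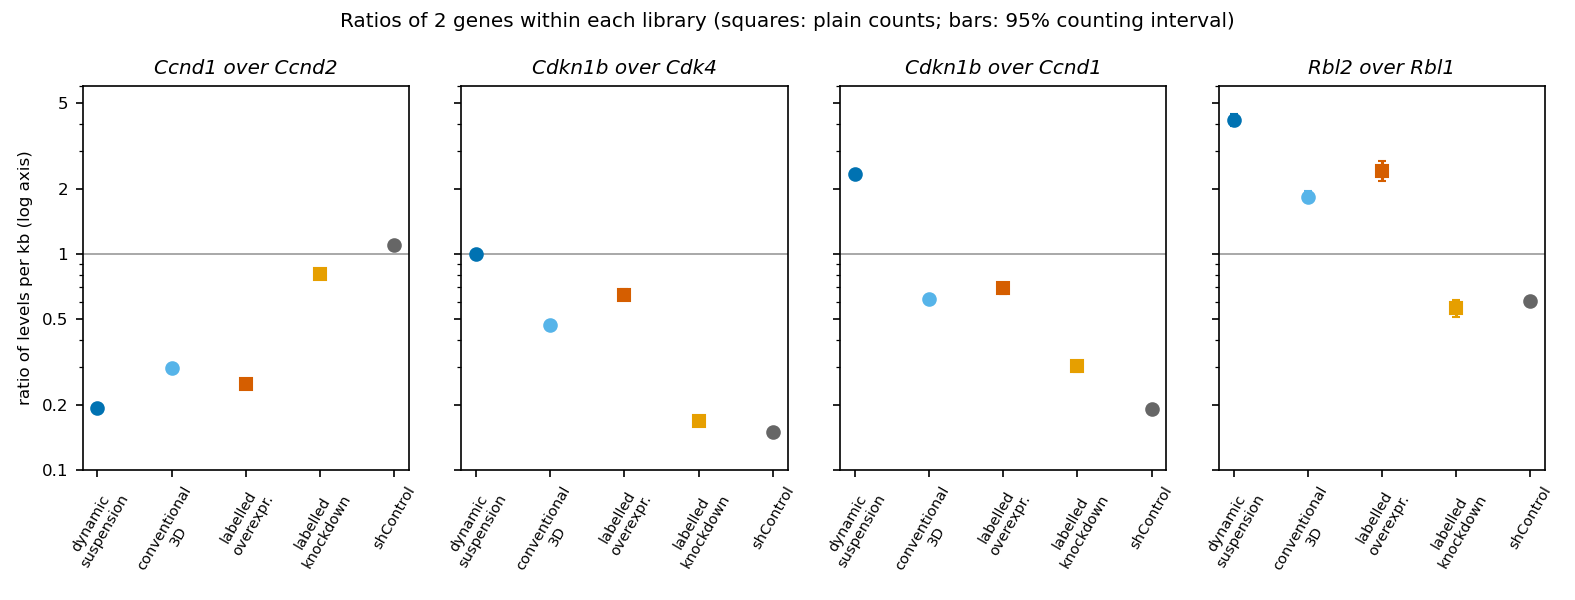
Ratios of CPM per kilobase between 2 genes within each of the 5 libraries, on a log axis, with 95% counting intervals; squares mark plain counts. Rbl2 over Rbl1 was 4.19 in dynamic suspension and 0.605 in shControl, and Cdkn1b over Cdk4 was 0.997 and 0.149 in the same libraries.

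Set against all genes, the number of members called was small in most comparisons. In dynamic suspension against conventional 3D, 2 of the 8 members tested were lower, Ccnd1 and Cdk6, where 7.64% of 12875 genes were called lower, and 0 were higher, where 6.44% were (14.1% in either direction). In dynamic suspension against shControl, 3 of 8 were lower, Ccnd1, Cdk4 and Cdk6, against 14.8% of 12940 genes, and 2 were higher, Cdkn1b and Rbl2, against 13.8% (28.6% in either direction). In conventional 3D against shControl, 1 of 9 was higher, Ccnd2, against 14.0% of 12929 genes, and 1 was lower, Cdk6, against 14.9% (28.9% in either direction); both shares were near the background. The library labelled overexpression against that labelled knockdown gave 1 of 8 higher, Rb1, against 17.7% of 12305 genes, and 1 lower, Cdk4, against 14.9% (32.7% in either direction). Against shControl the library labelled overexpression gave 1 of 8 higher, Ccnd2, against 16.1% of 12881 genes, and 1 lower, Cdk4, against 20.1% (36.3% in either direction). These were no more than the background. The comparisons with shControl share that library.

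The library labelled knockdown against shControl gave 0 of 8 in either direction, where 8.05% of 12639 genes were called higher and 15.7% lower (23.7% in all). Among these 8, the largest ratios were 0.67 for Cdkn1b and 0.50 for Cdk4; Cdkn1c, below the 1 CPM filter here, is described above. The medians of the members' log2 ratios were -0.35, 0.47, 0.00, 0.03, 0.16 and 0.42 in dynamic suspension against conventional 3D and against shControl, conventional 3D against shControl, the library labelled overexpression against that labelled knockdown, and those labelled knockdown and overexpression against shControl. The medians of all genes tested lay between -0.03 and 0.01. With total counts only, 61.4% of the calls in dynamic suspension against conventional 3D were higher, in place of 45.7%, and 31.8% of those in conventional 3D against shControl, in place of 48.6%.

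**Figure D4:**
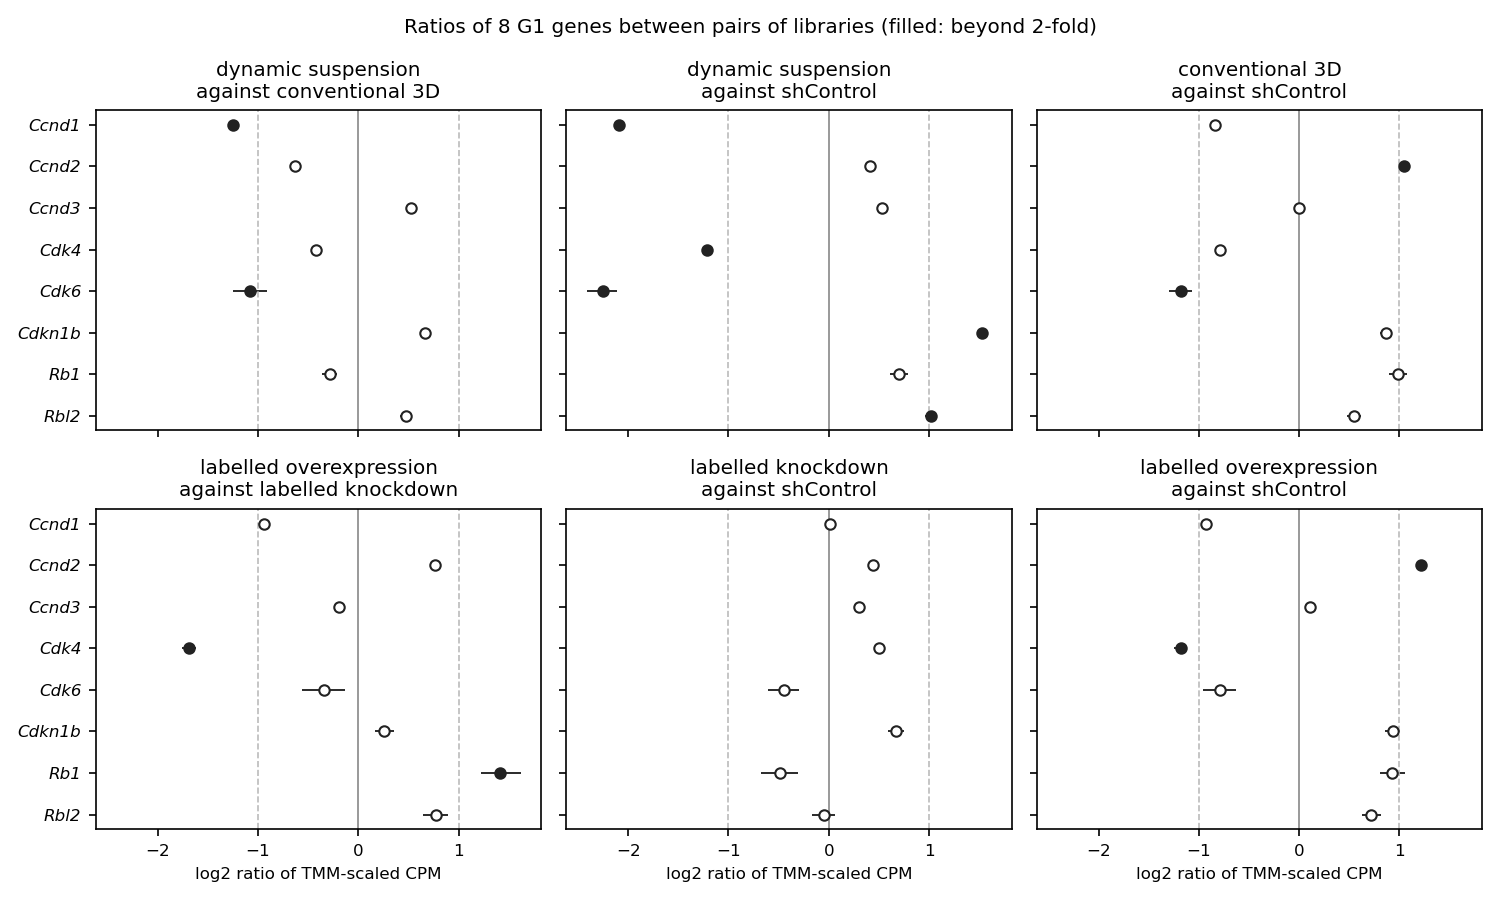
Log2 ratio of 8 members in the 6 comparisons, with 95% counting intervals; dashed lines mark the 2-fold threshold and filled points were called. In dynamic suspension against shControl, Cdk6 stood at -2.25, Ccnd1 at -2.09 and Cdk4 at -1.21, while Cdkn1b stood at 1.53 and Rbl2 at 1.02.

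The genes that act after the restriction point fell more widely than the members. Of 18 S-phase genes known as E2F targets, 13 were lower in dynamic suspension than in conventional 3D, with a median log2 ratio of -1.20, and 18 were lower in dynamic suspension than in shControl, with a median of -3.00. All 18 were lower in conventional 3D than in shControl and in the library labelled overexpression than in shControl, and 17 were lower in the library labelled overexpression than in that labelled knockdown. In the library labelled knockdown against shControl, 1 was higher, Cdt1, which loads the replicative helicase, with a log2 ratio of 1.35. Of 12 genes of G2 and mitosis, all were lower in every comparison but the library labelled knockdown against shControl, in which 2 were lower: Bub1, a spindle checkpoint kinase, with -1.49, and Mki67, the proliferation marker, with -1.34. Among all genes tested, between 7.64% and 20.1% were called lower in these comparisons. In the library labelled knockdown against shControl, 8.05% were called higher and 15.7% lower.

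Among 12 other G1/S cyclins, kinases and inhibitors tested, 3, 4, 2, 4, 0 and 3 were lower and 0, 0, 1, 0, 0 and 0 were higher in dynamic suspension against conventional 3D and against shControl, conventional 3D against shControl, the library labelled overexpression against that labelled knockdown, and those labelled knockdown and overexpression against shControl. In that order, 7.64%, 14.8%, 14.9%, 14.9%, 15.7% and 20.1% of all genes tested were called lower. Those called higher were 6.44%, 13.8%, 14.0%, 17.7%, 8.05% and 16.1%. In either direction 3, 4, 3, 4, 0 and 3 of the 12 were called, where 14.1%, 28.6%, 28.9%, 32.7%, 23.7% and 36.3% of all genes were. These counts were near or below that background in all but dynamic suspension against conventional 3D, and the genes named next are single values. Ccne1, which encodes cyclin E1, the activator of CDK2, gave log2 ratios of -1.03, -1.99, -0.95, -1.67, 0.62 and -1.05 in these 6 comparisons. Ccne2, its paralogue, gave 0.64, -1.96, -2.60, -1.99, -0.98 and -2.97. The lowest ratios in the list were -2.57, -4.49, -2.60, -3.35, -0.98 and -3.88, so genes not named here fell further in most comparisons. Cdk2, the kinase partner of cyclin E, stood between 372 and 554 CPM and was called in none of the comparisons.

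Of 17 other genes of the pocket protein, E2F, DP and MuvB families, 6, 7, 7, 9, 0 and 7 were lower and 0, 0, 2, 1, 2 and 0 were higher in the 6 comparisons in the same order. The shares of all genes tested that were called lower were 7.64%, 14.8%, 14.9%, 14.9%, 15.7% and 20.1%. Those called higher were 6.44%, 13.8%, 14.0%, 17.7%, 8.05% and 16.1%. Tfdp1, the partner that lets E2F proteins bind DNA, was at -1.19, -3.08, -1.89, -2.45, 0.51 and -1.94 on the log2 scale. It was not the lowest of the list, whose lowest ratios were -2.34, -3.96, -2.22, -3.87, -0.94 and -3.06. In the library labelled knockdown against shControl, the 2 that were higher were E2f1, an activator, with 1.34, and E2f7, a repressor that E2F1 induces, with 1.14. E2f5, which encodes a partner of p130, was lower in dynamic suspension than in conventional 3D, with -1.69, and higher in conventional 3D than in shControl, with 1.65.

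**Figure D5:**
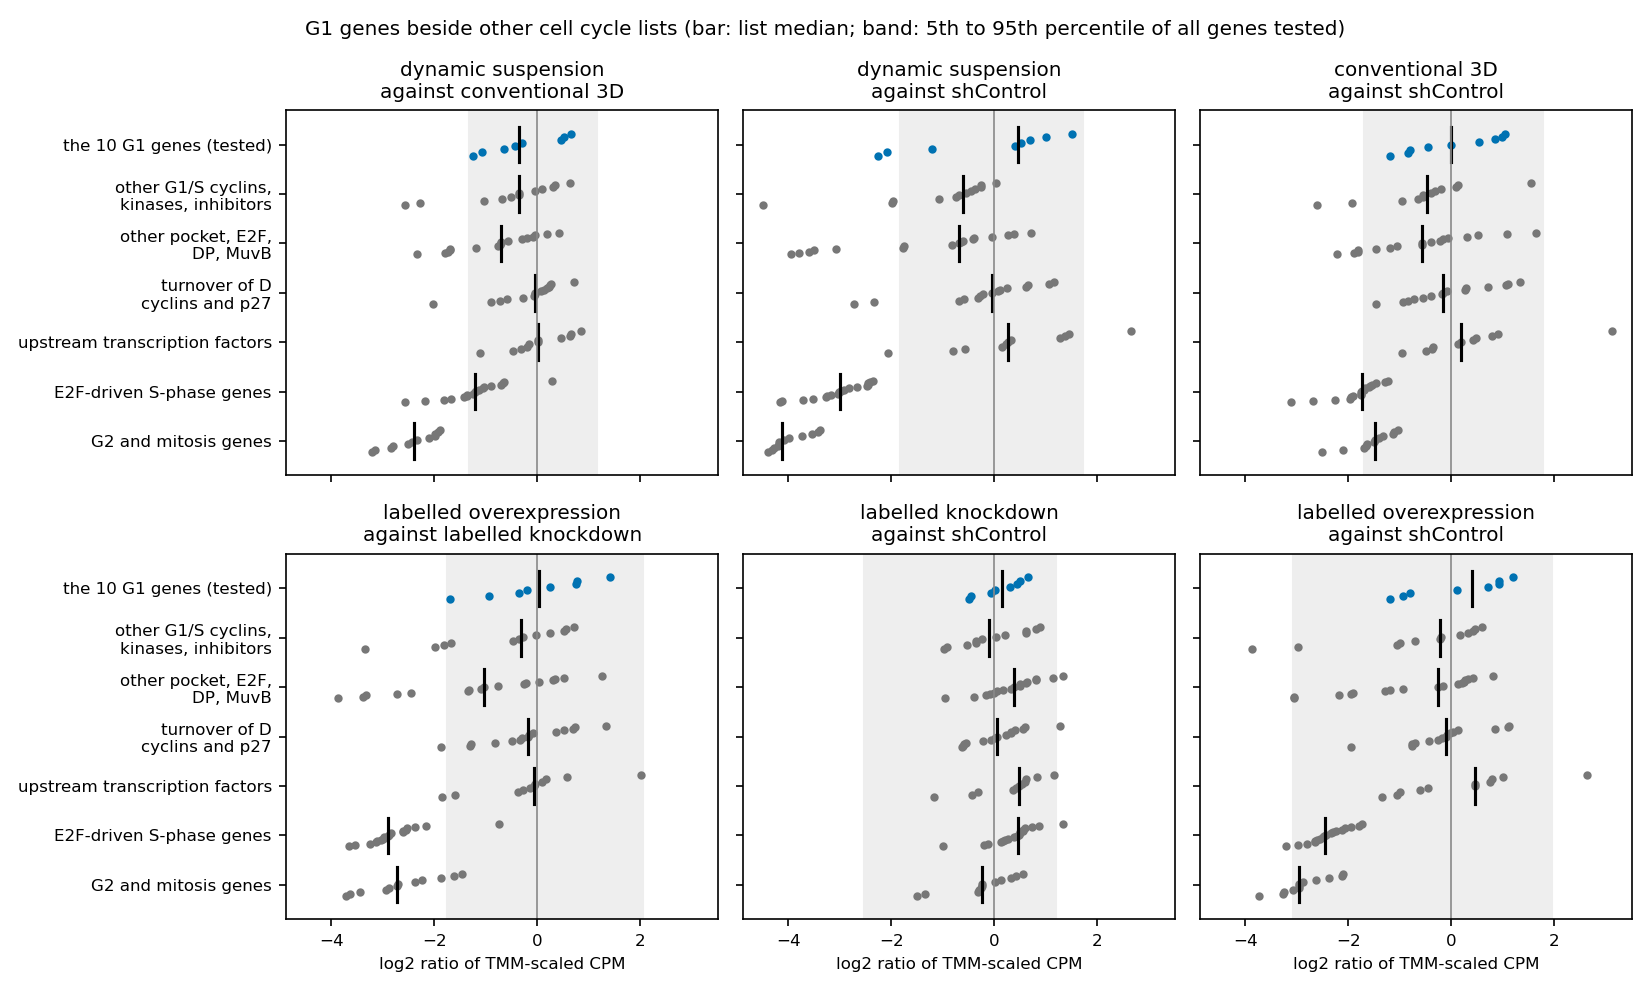
Log2 ratios of the genes tested in each list in the 6 comparisons; each point is 1 gene, black bars are list medians and the grey band spans the 5th to the 95th percentile of all genes tested. In dynamic suspension against shControl the median was -3.00 for the S-phase genes and -4.13 for the genes of G2 and mitosis, beside 0.47 for the members.

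Genes that control the turnover of D cyclins and p27 were mostly not called. Of 15 tested, 1, 2, 1, 3, 0 and 1 were lower and 0, 2, 3, 1, 1 and 2 were higher in the 6 comparisons in the same order. Of all genes tested, 14.1%, 28.6%, 28.9%, 32.7%, 23.7% and 36.3% were called in either direction. The list was thus no more often called than the background in any comparison, and the genes named next are single values. Skp2, the F-box protein that marks p27 for degradation, gave -2.02, -2.73, -0.71, -1.29, 0.60 and -0.70. Its cofactor Cks1b gave -0.89, -2.34, -1.45, -1.88, -0.06 and -1.94. Against shControl, both were lowest in dynamic suspension. The p27 protein was not measured, and a link of these genes to the level of Cdkn1b was not tested. Fbxo4, reported to mark cyclin D1 for degradation, was called higher in dynamic suspension, conventional 3D and the library labelled overexpression than in shControl, with 1.08, 1.12 and 1.14. Gsk3b, the kinase that phosphorylates cyclin D1 ahead of its export and turnover, gave 1.16 and 1.08 in the first 2 of these and 0.86 in the third, which was not called.

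Of 11 upstream transcription factors, Hif1a included, 1, 1, 0, 2, 1 and 2 were lower and 0, 4, 1, 1, 1 and 2 were higher in the same comparisons. The shares of all genes called in either direction were 14.1%, 28.6%, 28.9%, 32.7%, 23.7% and 36.3%. The list was above them in dynamic suspension against shControl, with 5 of 11 called, and at or below them in the other comparisons. The list is short and its 5 calls include Hif1a, the targeted gene. The genes named next are thus single values and not a result about the list. Foxo1 and Foxo3, which activate Cdkn1b in many cell types, were called higher in dynamic suspension than in shControl, with 1.38 and 1.29. Smad3, which carries TGF-β signals, was called higher there with 1.46. Myc, a factor that binds the E-box, held 16.8 CPM in dynamic suspension, 36.0 CPM in conventional 3D, 33.8 CPM in the library labelled overexpression, 102 CPM in that labelled knockdown and 70.1 CPM in shControl. It was lower in dynamic suspension than in conventional 3D and shControl, with -1.10 and -2.06, and in the library labelled overexpression than in that labelled knockdown and in shControl, with -1.59 and -1.05. Mitf, which also binds the E-box and is in this list, was not called in dynamic suspension against conventional 3D or against shControl. The levels of Myc in the library labelled knockdown and in shControl were the highest of the 5, as were those of Ccnd1, Cdk4 and Cdk6. For Ccnd1 there was no promoter window to search. Ccnd2, described above as a target of MYC in many cell types, was lowest in shControl. Any link between the levels of these factors and those of the members was not tested.

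The genes whose levels over the 5 libraries lay nearest to those of the 3 widest-ranging members, among those averaging at least 1 CPM, were found by distance on the log2 scale, after centring each gene, among 5674 genes; 5 libraries are few for such a ranking. Nearest to Cdk4 were Trim28, a co-repressor, at a distance of 0.105, Wdr5, a subunit of histone methyltransferase complexes, at 0.127, and Iars, an isoleucyl-tRNA synthetase, at 0.167, where the median gene stood at 1.67. Nearest to Ccnd1 were Lactb at 0.256, Reep4 at 0.261 and Kmt5a, a histone H4 methyltransferase, at 0.268, with a median of 1.84. Nearest to Cdk6 were Atad5 at 0.419, which unloads the replication clamp, Lactb at 0.446 and Atad2 at 0.448, with a median of 1.86.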

How the data were processed

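Poly(A) RNA of B16F10 cells was sequenced from strand-specific libraries, per the labels' protocols. The authors deposited 1 table of counts per gene for 5 libraries. The values in 3 deposited columns were taken as estimated counts, already whole numbers, and those in 2 as plain counts, from how their low values pile up. The submitters' processing notes name cutadapt, HISAT2 and StringTie with builds GRCm38.p6 and mm10. For the counting program, its annotation and its use of strand, nothing is stated in the labels or the notes.

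Columns were mapped to samples by the column names in the labels, with 0 columns left over. Counts were scaled with TMM in edgeR 4.0.16 (R 4.3.3). Log2 ratios used a prior count of 2, and genes averaging at least 1 CPM over the pair were tested. Counting intervals were exact (Clopper-Pearson for ratios, Poisson for levels) at 95%, and may be too narrow for estimated counts. With 1 library per group no p-value was computed. Gene length, overlap and position came from GENCODE M21, and promoters from RefSeq. The text names the 10 members, some of the genes of fixed lists that were called, the targeted gene, and the 3 nearest genes to each of the 3 widest-ranging members. Cdk2, Cdkn1a, Cdkn2a and the marker Ptprc were named for context, as were genes overlapping a member. Members and lists were chosen with earlier results of these data known. Alternatives were total counts, DESeq2 1.42.0 size factors, other TMM genes, filters, priors and folds. Scripts were checked on simulated counts. Figures were drawn with matplotlib 3.10.9.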

Additional observations from a re-analysis of the deposited data

How the results depend on the processing

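No paired analysis was possible because each group had 1 library, and for the same reason no replicate could be left out. Of 49 member log2 ratios, 2 changed sign under another scaling or prior count, Ccnd1 in the library labelled knockdown against shControl and Ccnd3 in conventional 3D against shControl, both within 0.25 of 0; 10 changed their call. With prior counts of 0.5 and 5 all 49 stayed within their counting interval. Dividing the estimated counts by 4 for the interval, chosen after seeing the data, moved no count of members. Prior counts and DESeq2 size factors moved no count of all genes by over 1.5 times.

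With total counts only, 1 member was lower in dynamic suspension against conventional 3D, 1 was higher in dynamic suspension against shControl, 0 were higher and 3 lower in conventional 3D against shControl, and 3 were higher in the library labelled overexpression against shControl. All genes moved too. In the first, 703 were lower in place of 984, and in the second 1616 were higher in place of 1782. In the third, 1275 were higher and 2740 lower, in place of 1815 and 1920. In the last, 2327 were higher in place of 2078. That scaling moved the median of all genes by 0.19 in dynamic suspension against conventional 3D and by -0.26 in conventional 3D against shControl. TMM factors from protein-coding genes without overlap moved it by -0.10 in the library labelled knockdown against shControl. They gave 2 members lower in that labelled overexpression against shControl, where 2834 of all genes were lower in place of 2594. DESeq2 size factors gave 2 members higher in conventional 3D against shControl, where 1879 of all genes were higher in place of 1815. With no filter, Cdkn1c was added as 1 member lower in the library labelled knockdown and as the second of 2 in that labelled overexpression, both against shControl.

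At 1.5-fold, members called higher numbered 1 in dynamic suspension against conventional 3D, 3 in conventional 3D against shControl, 3 in the library labelled overexpression against that labelled knockdown, 1 in that labelled knockdown against shControl and 4 in that labelled overexpression against shControl. Members called lower numbered 3, 2 and 3 in conventional 3D against shControl, the library labelled overexpression against that labelled knockdown and that labelled overexpression against shControl. In dynamic suspension, Ccnd2 was added to the members lower than in conventional 3D, with -0.63. Rb1 was added to those higher than in shControl, with 0.70. For all genes, the counts of higher and lower calls at 1.5-fold were 1843 and 2166 in dynamic suspension against conventional 3D, 3190 and 3444 in dynamic suspension against shControl, 3199 and 3431 in conventional 3D against shControl, 3399 and 3296 in the library labelled overexpression against that labelled knockdown, and 2558 and 3176 in that labelled knockdown against shControl, with 3449 higher in that labelled overexpression against shControl. With no filter on low values they were 2470 and 2215, 3204 and 3536, and 3104 and 3841 in the first 3 of these, 1653 and 3275 in the library labelled knockdown against shControl, and 3452 and 3989 in that labelled overexpression against shControl. At 5 CPM or above they were 469 and 619 in dynamic suspension against conventional 3D, with 1187 lower in the library labelled knockdown against shControl. Looser thresholds and filters call or test more genes by construction; the cause of the moves under other scalings was not tested. Among the members, Cdkn2b, with at most 10 counts in a library, and Cdkn1c in the libraries labelled overexpression and knockdown, with 7 and 1, had the least depth.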
